A study of Mus musculus with 3 samples.

Results

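The complement system is a cascade of plasma and membrane proteins that marks, opsonises and lyses cells. The 35 genes described here encode its components, its regulators and its receptors, chosen by symbol from a list of named complement genes and found among the 24421 gene lines of the deposited count tables. In all, 34 were listed under their own symbol, and C1s was found as C1s1, its current name in RefSeq. They were measured in SB28, a transplantable glioblastoma line on the C57BL/6 background derived from a mouse brain tumour induced with oncogenes, in 3 replicate RNA-seq libraries that form 1 group. The labels give brain as the source and name no treatment, time, age, passage or control group, and nothing in them says that the libraries came from separate cultures. SDs and p-values therefore measure only the spread between these libraries, which may be technical.

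Complement is started by 3 routes. In the classical route the recognition protein C1q carries the proteases C1r and C1s, which cleave C4 and C2. In the lectin route mannose-binding lectins and ficolins carry the MASP proteases, and in the alternative route factor B and factor D act on C3 with properdin as a stabiliser. All routes meet at C3, and the late components C5 to C9 form the membrane attack complex. Host cells restrain the cascade with membrane proteins and with soluble regulators. The liver makes most plasma complement, while in brain C1q comes mainly from microglia, and astrocytes and glioma cells can make clusterin and some early components.

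Levels are counts scaled to 1000000 counts assigned to genes (CPM), with the mean ± SD of n = 3 libraries, and where 3 values are given they follow replicates 1, 2 and 3. Levels of different genes are compared as CPM per kb of union exon length. A gene counts as detected where each of the libraries holds at least 1 CPM of it. Replicates 1, 2 and 3 held 36019009, 28990128 and 32632858 counts, so that 3 counts, the limit that a count of 0 allows, equal 0.0833, 0.103 and 0.0919 CPM. This limit covers counting error only. Replicate 3 stood apart. By a chi-square test of counts, with Benjamini-Hochberg adjustment over all genes tested, 2.01% of genes differed between replicates 1 and 2, against 64% between 1 and 3 and 62.8% between 2 and 3. Between replicates 1 and 2 the same test called 0 of the 14 complement genes with enough counts, and 3 of them had an unadjusted p under 0.05.

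A few complement genes were abundant in SB28, and most lay below 1 CPM. Of the 35 genes, 7 were detected (20%, against 46.6% of all gene lines and 54.1% of protein-coding genes), 4 were split between libraries and 24 lay below 1 CPM in every library, among them 13 with 0 counts in all 3. The share at 0 counts was 37.1%, against 31.9% of all gene lines and 25.9% of protein-coding genes. The median gene of the list had 0.0437 CPM, against 0.541 CPM over all gene lines and 3.80 CPM over protein-coding genes. Together the 35 genes took 0.0636%, 0.0628% and 0.0639% of the counts. Clu, C1qbp and Masp1 held 93.2 ± 0.468% of those counts, and Clu alone held 53.3 ± 0.820%. By role, detection reached 2 of 14 classical and lectin components, 1 of 4 central and alternative components, 0 of 6 terminal components, 3 of 8 regulators and 1 of 3 receptors.

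**Figure D1:**
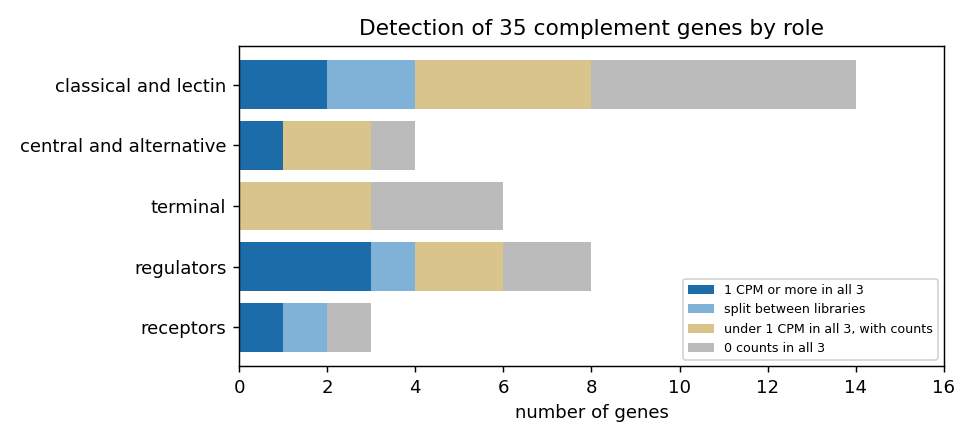
Number of complement genes (x axis) in each role (y axis), coloured by detection: 1 CPM or more in all 3 libraries, split, under 1 CPM in all 3 with counts, or 0 counts in all 3. The terminal components have no detected gene, and 6 of the 14 classical and lectin components had 0 counts.

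RefSeq promoter windows of GRCm38.p6, running from 250 bases before to 50 bases after an annotated start, matched 28 of the 35 genes. Those of C1qa, C2, C4b, Masp1, Cfb, Cfi and Clu were not matched. CG dinucleotides mark many broadly active promoters, and 3 windows of regulators with unlike levels are shown with their CG dinucleotides in capitals. They are C1qbp at chr11:70982977-70983276 on the minus strand, Cr1l at chr1:195131521-195131820 on the minus strand and Cd55 at chr1:130462695-130462994 on the minus strand.
C1qbp: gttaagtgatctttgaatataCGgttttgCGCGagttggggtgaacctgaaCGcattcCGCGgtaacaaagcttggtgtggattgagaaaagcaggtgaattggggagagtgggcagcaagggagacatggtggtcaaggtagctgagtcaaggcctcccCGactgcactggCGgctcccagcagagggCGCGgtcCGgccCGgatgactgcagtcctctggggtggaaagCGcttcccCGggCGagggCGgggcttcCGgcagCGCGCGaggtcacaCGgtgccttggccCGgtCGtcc
Cr1l: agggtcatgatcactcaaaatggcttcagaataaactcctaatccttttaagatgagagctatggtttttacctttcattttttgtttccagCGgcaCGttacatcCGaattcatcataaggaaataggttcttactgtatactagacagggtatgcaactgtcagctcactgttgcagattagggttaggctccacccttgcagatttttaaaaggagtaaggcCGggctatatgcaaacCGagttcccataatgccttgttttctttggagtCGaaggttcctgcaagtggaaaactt
Cd55: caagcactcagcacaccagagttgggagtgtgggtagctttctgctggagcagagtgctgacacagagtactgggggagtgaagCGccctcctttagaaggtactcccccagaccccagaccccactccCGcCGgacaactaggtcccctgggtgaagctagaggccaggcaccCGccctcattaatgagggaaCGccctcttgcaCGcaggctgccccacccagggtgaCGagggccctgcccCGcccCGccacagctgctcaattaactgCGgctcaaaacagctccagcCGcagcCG
The window of C1qbp, the second most abundant gene of the list, held 23 CG dinucleotides, more than in 78.5% of 32851 promoter windows, whose median was 7. That of Cd55, at 0 counts, held 12, and that of Cr1l, at 24.9 CPM, held 6. Over the matched genes the 5 detected had a median of 5 CG dinucleotides (range 1 to 23) and the 23 not detected had a median of 3 (range 0 to 14), so the ranges overlapped.

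Clu and C1qbp, both listed as regulators, held the highest levels. Clu encodes clusterin, a secreted chaperone that also blocks assembly of the terminal complex. It stood at 343, 336 and 335 CPM (338 ± 4.68), or 98.4 ± 1.36 CPM per kb, above 96.4% of detected genes. Its 3 libraries lay within counting noise of each other (chi-square test, adjusted p = 0.187). The gene lies on chromosome 14 at 65968483 to 65981547 on the plus strand (GRCm38), and none of the 50-base words of its longest transcript occurred in transcripts of other genes.

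C1qbp encodes p32, a mitochondrial matrix protein that can also appear at the cell surface and bind the globular heads of C1q. It reached 151, 156 and 191 CPM (165.9 ± 22.3), or 58.7 ± 7.89 CPM per kb. Its level was highest in replicate 3, at 1.26 times the mean of the other libraries (chi-square test, adjusted p = 4.58e-45). With longest transcripts Clu and C1qbp stood at 187 and 83.0 CPM per kb. Per kb of union exon length, Clu lay 1.69-fold above C1qbp, larger than the spread between replicates. That term means here that all 3 libraries fell on the same side and the mean log2 ratio exceeded 2 SD.

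Of the membrane regulators Cr1l was the most abundant. It is the gene of the rodent regulator Crry, which serves as cofactor for the cleavage of C3b and C4b and speeds the decay of the C3 convertases. Cr1l stood at 24.8, 24.2 and 25.8 CPM (24.9 ± 0.838) and did not vary beyond counting noise (adjusted p = 0.396). The other membrane regulators were low or without counts. Cd55, encoding decay-accelerating factor, had 0 counts in every library. Cd46, encoding membrane cofactor protein, which in mice is largely confined to the testis, had 2, 1 and 4 counts. Cd59a, encoding the inhibitor of the membrane attack complex, stood at 0.805, 0.966 and 1.195 CPM and so reached 1 CPM in replicate 3 only.

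Per kb, Cr1l lay 232-fold above Cd46 (log2 ratio 7.85 ± 0.68), larger than the spread between replicates in a ratio that rests on 7 counts of Cd46 and fell to 6.37 on the log2 scale with a pseudocount of 5. Against Cd55, Cr1l was at least 381-fold higher, taking a floor of 3 counts over the 3 libraries, and at least 659-fold with longest transcripts. Cd59a lay below Cr1l by a log2 ratio of −2.14 ± 0.25, so that Cr1l was 4.40-fold higher, larger than the spread. The union exon length of Cr1l, 10349 bases, exceeds its longest transcript of 3859 bases, and with longest transcripts the log2 ratio of Cd59a over Cr1l was −3.56. Cd55 shares 12.5% of its 50-base words with other genes, among them its copy Cd55b, so that reads placed at more than 1 position would be missing from its count. Cd59a shares 3.98% of its words with Cd59b, and the pair summed to 0.861, 1.24 and 1.38 CPM.

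Cr1l lies between Cd46 and Cr2 on chromosome 1, 5132 bases from Cd46 and 5224 bases from Cr2, in the cluster of regulators of complement activation. Levels across these neighbours were unlike. Cr1l averaged 2.41 ± 0.081 CPM per kb, Cr2 0.0915 ± 0.0365 and Cd46 0.00932 ± 0.00605. Their annotated spans run from 195036826 to 195176716, all on the minus strand.

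The soluble regulators Vtn and Cfi had almost no counts. Vtn, encoding vitronectin, which binds the nascent terminal complex, had 1 count over the 3 libraries. The pooled ratio of Clu to Vtn per base was 19513 (exact 95% interval 3502 to 770733, counting error only). That count was in replicate 2, and without it the ratio was at least 4587. Cfi, encoding factor I, the protease that cuts C3b and C4b with a cofactor such as Crry, had 0 counts in all libraries.

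Among the components, Masp1 had the highest level per length, at 8.87 CPM per kb, against 2.34 CPM per kb for Cfp, the next. It encodes MASP-1 and, by alternative splicing, MASP-3 and MAp44, which act in the lectin and alternative routes and as an inhibitor, and counts per gene do not separate these products. Masp1 reached 97.1, 91.8 and 72.7 CPM (87.2 ± 12.8), or 8.87 ± 1.30 CPM per kb, with replicate 3 lowest (adjusted p = 6.66e-26). Its partner Masp2, the protease that cleaves C4 and C2 in the lectin route, had 0, 2 and 1 counts. The pooled ratio of Masp1 to Masp2 per base was 956 (exact 95% interval 327 to 4638), and it was 564 without replicate 1 and 1974 without replicate 2. In the GENCODE M21 annotation 54.9% of the Masp2 exon bases overlap Tardbp on the other strand, and reads there may have been left out as ambiguous. Masp1 lies on chromosome 16 at 23449417 to 23520815.

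The lectins that carry these proteases were close to 0. Mbl1 and Mbl2, the mannose-binding lectins, and the ficolin Fcnb had 0 counts, and the ficolin Fcna had 1, 1 and 5 counts. The C1q chain genes C1qa, C1qb and C1qc also had no count in any library, and the limit in the shallowest library is 0.103 CPM for each. Of 12 microglia and macrophage markers, 3 were detected, Tmem119 and Cd68 among them, while Aif1, Adgre1 and Tyrobp had 0 counts. Ptprc averaged 0.249 CPM. The summed level of that marker list was 106, 98.3 and 66.6 CPM, lowest in replicate 3, and its part in the results was not tested.

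The genes of the C1 proteases were low but measurable. C1ra, encoding C1r, stood at 2.67, 2.35 and 0.735 CPM. C1s1, encoding C1s, stood at 2.33, 2.17 and 0.215 CPM, or 84, 63 and 7 counts. C1rl, a protease gene related to C1r, stood at 4.50, 4.86 and 1.44 CPM. All 3 were lowest in replicate 3, where they summed to 2.39 CPM, against 9.49 and 9.38 CPM in replicates 1 and 2.

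Scaled by the trimmed mean of M values (TMM), the level in replicates 1 and 2 was 3.39-fold that in replicate 3 for C1ra, 3.23-fold for C1rl and 10.4-fold for C1s1. The chi-square test gave adjusted p = 3.58e-08 for C1ra, 1.03e-13 for C1rl and 1.29e-12 for C1s1. It compares the libraries with counting noise and says nothing of conditions. C1ra lay 1.87-fold below C1rl per kb in a ratio steady over the libraries (1.67 to 2.05), larger than the spread. C1ra shares 50.8% of its transcript words with other genes, and C1rl shares none. Reads placed more than once may therefore be missing from the C1ra count and not from that of C1rl. The part of such missing reads in the ratio of C1ra to C1rl was not tested. The log2 ratio of C1s1 over C1ra was −0.26, −0.18 and −1.78 in replicates 1, 2 and 3 (−0.74 ± 0.90), within the spread, and −0.22 ± 0.06 without replicate 3, larger than the spread.

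C1rl, C1ra and C1s1 lie next to each other in 49247 bases of chromosome 6, with 1761 bases between C1rl and C1ra and 6901 bases between C1ra and C1s1. The copy C1rb had 0 counts and the copy C1s2 had 2, 3 and 0. C1ra shares 50.8% of its 50-base words with other genes, C1rb among them, and C1s1 shares 39.0%, C1s2 among the genes, so their counts may be too low. Gm16567 covers 18.4% of the C1s1 exon bases on the other strand. C1ra, C1rl and C1s1 were all lowest in replicate 3, as were 47.9% of all varying genes. Their promoter windows are shown for that reason, with matches to the 7 motifs searched in capitals. They are C1ra at chr6:124512371-124512670 on the plus strand, C1rl at chr6:124492863-124493162 on the plus strand and C1s1 at chr6:124542310-124542609 on the minus strand, the first of the 2 starts listed for C1s1.
C1ra: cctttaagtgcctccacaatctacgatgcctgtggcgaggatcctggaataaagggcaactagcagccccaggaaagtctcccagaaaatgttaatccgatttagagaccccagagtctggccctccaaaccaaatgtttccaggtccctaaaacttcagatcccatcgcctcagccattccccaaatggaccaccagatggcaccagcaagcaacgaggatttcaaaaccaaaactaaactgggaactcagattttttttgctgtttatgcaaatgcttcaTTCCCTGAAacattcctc
C1rl: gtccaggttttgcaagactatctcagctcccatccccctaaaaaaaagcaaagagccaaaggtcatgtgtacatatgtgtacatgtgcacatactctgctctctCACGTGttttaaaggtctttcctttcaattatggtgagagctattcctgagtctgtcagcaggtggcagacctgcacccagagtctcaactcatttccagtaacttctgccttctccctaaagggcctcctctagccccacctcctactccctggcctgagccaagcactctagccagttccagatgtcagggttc
C1s1: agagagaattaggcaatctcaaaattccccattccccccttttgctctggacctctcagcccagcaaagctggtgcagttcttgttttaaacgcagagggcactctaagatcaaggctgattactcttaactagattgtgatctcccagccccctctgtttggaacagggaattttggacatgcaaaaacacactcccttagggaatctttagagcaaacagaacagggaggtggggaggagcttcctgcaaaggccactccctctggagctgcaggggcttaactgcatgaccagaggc
The STAT motif TTCNNNGAA was matched in C1ra, 32 bases after the RefSeq start, and is present in 8.3% of all promoter windows. In GENCODE M21 C1ra starts further upstream, at 124512405, so most of its window lies after that start. An E-box, CACGTG, was matched in C1rl at position −146 from the start and is present in 7.15% of windows. No motif was matched in the C1s1 window. All motifs were searched on both strands. The others were GGGCGG (GC box, 35.7% of windows), CCGGAAG (ETS, 8.86%), TTGCGCAA (C/EBP, 0.183%), and the interferon response (3.44%) and NF-kappaB (1.47%) motifs. Of the 28 windows, 5 held the STAT motif, 5 the GC box, 3 the interferon response motif and 1 each the E-box and the ETS motif, and no matches overlapped each other. None held the C/EBP or NF-kappaB motif.

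The genes of C4 and C2, which the C1 proteases cleave, and the gene of C3 lay below 1 CPM in every library. C4b had 20, 11 and 0 counts, C2 had 5, 11 and 5, and C3, the component on which all routes meet, had 19, 12 and 8 (0.396 ± 0.142 CPM). The copy C4a had 12, 10 and 18 counts and holds 35.2% of the words of C4b, and summed the pair stood at 0.888, 0.724 and 0.552 CPM. C4b varied beyond counting noise (chi-square test, adjusted p = 4.21e-04), C3 did not (adjusted p = 0.234), and C2 had too few counts for the test. By the same chi-square test C4a did not vary (adjusted p = 0.349), and the sum of C4b and C4a was not tested. The ratio of C3 to C4b stood at a log2 value of 1.53 ± 2.35, within the spread, and that of C2 to C4b at 1.08 ± 2.72, also within it. Both rest on replicate 3, the library in which C4b had 0 counts. Without it the log2 ratio of C3 to C4b was 0.17 ± 0.14 and that of C2 to C4b was −0.39 ± 1.34.

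Of the alternative route, Cfp was detected, at 3.39, 4.55 and 4.23 CPM (4.06 ± 0.602), and did not vary beyond counting noise (adjusted p = 0.0729). It encodes properdin, the stabiliser of the alternative C3 convertase, best known from neutrophils and other leukocytes. Cfb, encoding factor B, had 1 count in all, and Cfd, encoding factor D, had 0. The pooled ratio of Cfb to C2, the catalytic subunits of the 2 kinds of C3 convertase, was 0.0653 (exact 95% interval 0.00158 to 0.406). GENCODE places the transcript Gm20547 over 79.5% of the Cfb and 42.8% of the C2 exon bases on the same strand, and whether the authors' annotation held it is not given in the sources used here, so both levels are uncertain.

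No terminal component was detected. C6, C7 and C8b had 0 counts, C8a had 1 and C9 had 4 over the 3 libraries. C8g, whose product is a lipocalin that joins the C8 complex, had 19, 9 and 12 counts, or 0.402 ± 0.112 CPM. For the fixed pair C7 and C6, and likewise Cfi and Cfb, no ratio is given because both genes lay at or under the floor of 3 counts.

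Of the receptors, C3ar1, encoding the receptor for the anaphylatoxin C3a, was detected at 4.05, 3.001 and 4.26 CPM (3.77 ± 0.675), with replicate 2 lowest (adjusted p = 0.0364). C5ar1, encoding the receptor for C5a, had 0 counts. C3ar1 was at least 74.0-fold higher than C5ar1 per base over a floor of 3 counts in the 3 libraries. Cr2, which in mice gives rise to the receptors CD21 and CD35 of B cells and follicular dendritic cells, stood at 0.4997, 0.655 and 1.07 CPM, highest in replicate 3 (adjusted p = 0.0274). None of 6 lymphocyte markers was detected: Cd79a had 4 counts in all, Cd4 had 1, and Cd3e, Cd8a and Ms4a1 were among those with 0.

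**Figure D2:**
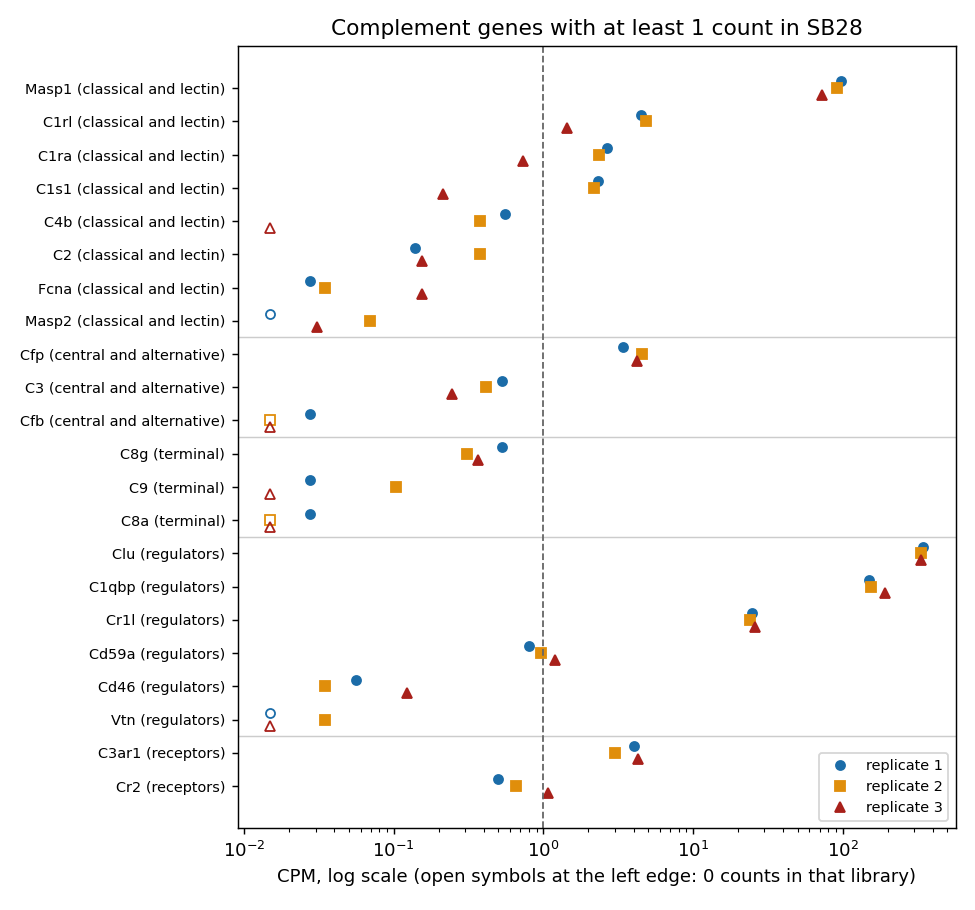
CPM on a log axis (x) of the 22 complement genes with at least 1 count (y), grouped by role, with a symbol for each library and a dashed line at 1 CPM. Clu, C1qbp and Masp1 lie at 72.7 CPM or more in all libraries, Cr1l at 24.2 to 25.8 CPM, and the other genes below 5 CPM.

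By CPM per kb the 14 genes averaging 10 counts or more ran Clu, C1qbp, Masp1, Cr1l, Cfp, C1rl, C3ar1, C1ra, Cd59a, C1s1, C8g, Cr2, C3 and C4b. Of the 13 steps between neighbours, the first 3 were larger than the spread between replicates and the other 10 were not. Clu to C1qbp was 1.69-fold, C1qbp to Masp1 6.63-fold and Masp1 to Cr1l 3.65-fold. These folds depend on the length used. With longest transcripts Clu, C1qbp, Masp1 and Cr1l stood at 187, 83.0, 16.3 and 6.46 CPM per kb, and 4 steps exceeded the spread. Cr1l and Cfp differed by 1.04-fold, within the spread, and with longest transcripts they stood at 6.46 and 2.48 CPM per kb. Without length correction 5 steps exceeded the spread. For the 6 fixed pairs tested, 3 ratios exceeded the spread. An exact permutation test that flips signs, two-sided, gave p = 0.25 for 5 of them (0.3 adjusted over the 6) and 0.75 for C2 over C4b. With 3 libraries its smallest p is 0.25, so 0.05 was out of reach.

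The C1 protease genes, C4b and Masp1 were lowest in replicate 3, while Clu and Cr1l did not vary beyond counting noise. Of the 35 genes, 14 had enough counts for the test and 8 of them varied (57.1%, against 65.7% of all genes tested), which is close to the background. Of the 8, 5 were lowest in replicate 3 (62.5%, against 47.9% of all varying genes) and 3 were highest there (37.5%, against 50.4%). The 5 were C1ra, C1rl, C1s1, C4b and Masp1, the classical and lectin components that could be tested. The 3 were C1qbp, C3ar1 and Cr2. Clu, Cr1l, Cfp, Cd59a, C3 and C8g did not vary beyond counting noise. Without replicate 3 the chi-square test called 0 of the 14 genes, 3 of which had an unadjusted p under 0.05.

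**Figure D3:**
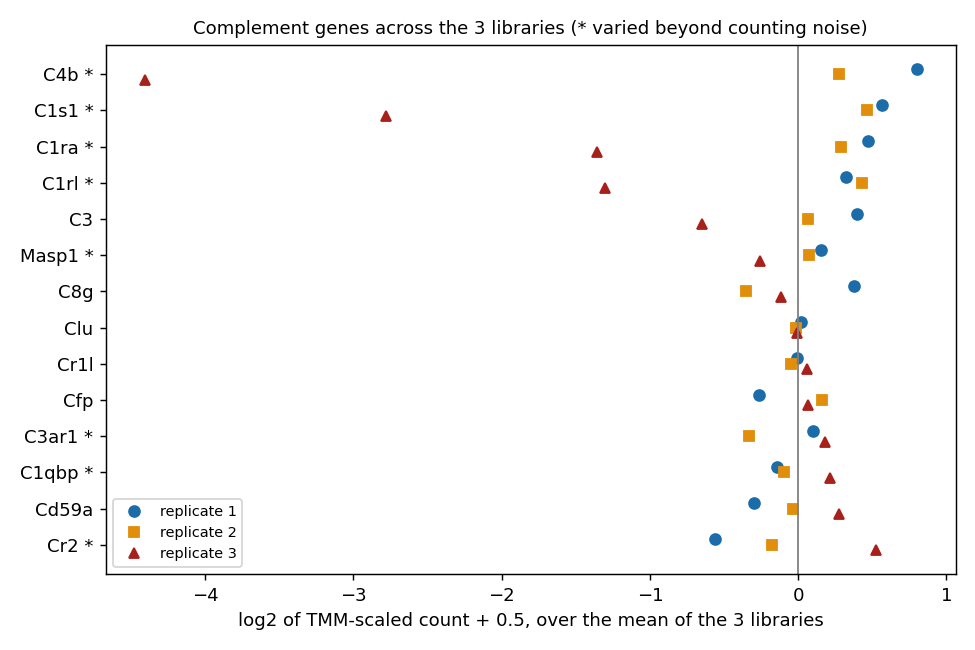
Log2 of the TMM-scaled count plus 0.5, over the mean of the 3 libraries (x), for the 14 tested complement genes (y), with a symbol for each library and a star on the 8 that varied. C4b, C1s1, C1ra and C1rl have replicate 3 far to the left of replicates 1 and 2, while for Clu and Cr1l the 3 libraries nearly coincide.

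Other genes were also lowest in replicate 3. Of 16 receptors, kinases and transcription factors known to induce complement genes, all 16 were detected (against 46.6% of all gene lines) and 14 varied (against 65.7% of all genes tested), 13 of them lowest in replicate 3, a direction that 47.9% of all varying genes had. Irf1, an interferon-induced factor, stood at 38.6, 37.7 and 17.4 CPM. Stat3, the factor downstream of the interleukin 6 receptor, stood at 164, 166 and 107.9 CPM, and Cebpd, an acute phase factor, at 53.4, 48.9 and 28.3 CPM. The kinase Jak2 stood at 56.2, 58.2 and 33.8 CPM. The NF-kappaB subunits stayed closer, with Nfkb1 at 117, 115 and 118 CPM and Rela at 95.2, 90.3 and 89.1 CPM. The most abundant of the list were Jak1 (167 ± 5.30), Il6st (164 ± 6.18), Stat3 (146 ± 33.0) and Nfkb1 (117 ± 1.40). Whether the genes of this list had a part in the levels of the complement genes was not tested.

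**Figure D4:**
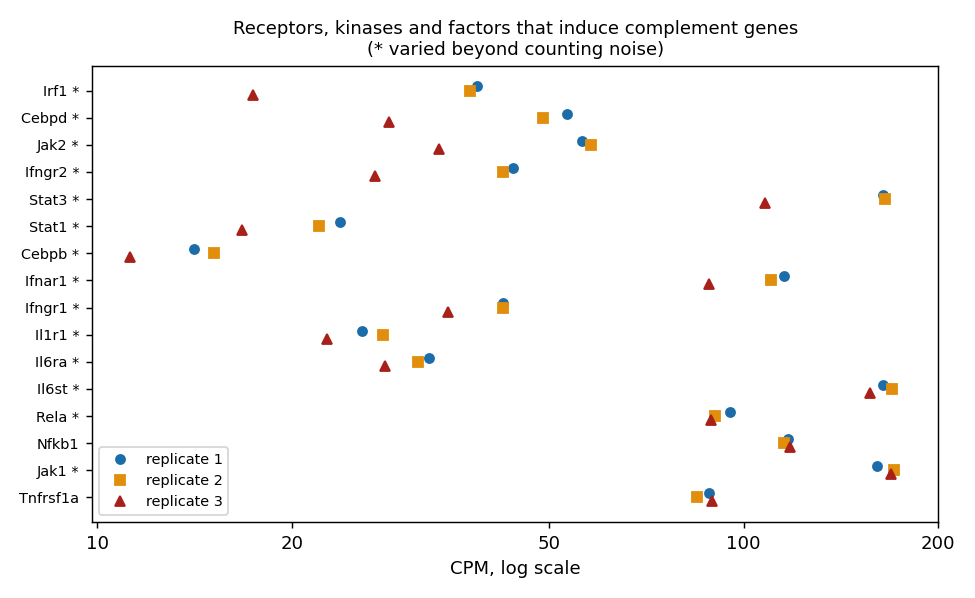
CPM on a log axis (x) of 16 receptors, kinases and factors that induce complement genes (y), with a symbol for each library and a star on those that varied. Irf1, Cebpd, Jak2, Ifngr2 and Stat3 have replicate 3 well below replicates 1 and 2, and Nfkb1, Tnfrsf1a and Jak1 do not.

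Fibroblast and pericyte markers were also lowest in replicate 3. Of 8 such markers 6 were detected (75%, against 46.6% of all gene lines). Of the 7 that could be tested 6 varied, all lowest in replicate 3. Over all genes tested 65.7% varied, and 47.9% of the varying genes were lowest in replicate 3. The summed level of the 8 markers was 4288, 4170 and 2207 CPM, led by Col1a1, Col1a2, Col3a1 and Pdgfrb. Cspg4 did not vary beyond counting noise (chi-square test, adjusted p = 0.0987). Dcn stood at 1.30, 1.90 and 0.276 CPM, and Lum had 3 counts in all. The part of these genes, or of a difference in cell makeup or state, in the levels of C1ra, C1rl, C1s1 and C4b was not tested. In bulk RNA, fewer cells of a kind and less RNA per cell cannot be told apart. Of 8 hepatocyte markers 1 was detected, Apoa2 (2.22 ± 0.379 CPM), Hpx and Apoa1 averaged 0.293 and 0.0472 CPM, and Alb, Ttr, Ahsg, Serpina1a and Fgb had 0 counts. None of 4 adipocyte markers was detected, adipocytes being the main source of factor D. Fabp4 averaged 0.1995 CPM and Adipoq 0.0208 CPM, and Lep and Plin1 had 0 counts.

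Among 30 other genes of the complement network, 7 were detected, 16 lay below 1 CPM with counts and 7 had 0 counts. The 7 (23.3%, against 46.6% of all gene lines) were Calr, Ctsl, Colec12, Cd93, Thbd, Ptx3 and Susd4. Calr (1171 ± 20.7 CPM) encodes calreticulin, a chaperone that can bind C1q at the cell surface. Ctsl (502 ± 4.95) encodes cathepsin L, a lysosomal protease that can cleave C3 inside human T cells. Colec12 (85.8 ± 5.40) encodes a scavenger receptor of the collectin family, and Cd93 (83.3 ± 9.76) a transmembrane lectin once described as a C1q receptor.

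Of the 7 detected genes of that list, Ptx3 and Thbd had the widest range between libraries, 2.80-fold and 1.70-fold. Thbd, encoding thrombomodulin, which promotes inactivation of C3b by factor I, stood at 22.8, 20.7 and 35.1 CPM. Ptx3, encoding a pentraxin that binds C1q, stood at 13.6, 13.2 and 37.05 CPM, so that replicate 3 lay at 2.78 times the mean of the other libraries (chi-square test, adjusted p = 1.59e-124). Susd4, encoding a membrane regulator with complement control modules, was low at 1.21 ± 0.227 CPM. Among those below detection were Serping1, the C1 inhibitor gene (14, 22 and 18 counts), Hc, the gene of C5 (1, 1 and 6), and C5ar2, a further C5a receptor gene (1, 2 and 4). C4bp, Vsig4, Crp, Apcs, Cpn1 and C1rb were among those with 0 counts.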

How the data were processed

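RNA-seq of SB28 was deposited as 3 libraries. Per the labels' protocols, the input was 1 µg of total RNA and the kit Illumina TruSeq RNA. The authors deposited raw counts per gene symbol, and per the submitters' processing notes Bowtie2 2.2.4, HTSeq and the mm10 assembly were used; options, annotation and strand setting are not given in the sources used here. If reads were counted without strand, a gene and an antisense partner cannot be told apart. The 5 summary lines were left out of totals; reads with no feature, ambiguous reads and reads placed more than once came to 5.19 to 6.54%, 1.01 to 1.05% and 8.86 to 9.58% of each library.

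CPM was computed over counts assigned to genes. Gene lengths and positions came from GENCODE M21 (GRCm38). Pair ratios used a pseudocount of 0.5 counts. The chi-square test with 2 degrees of freedom took genes averaging 10 counts or more after TMM scaling. Its p-values had Benjamini-Hochberg adjustment over all 12737 genes at 0.05. The test was also run on simulated counts with counting noise only, with and without changes put in. Those counts hold no wider spread between libraries, so that run cannot show how the test behaves under such spread. The common dispersion from edgeR 4.0.16 gave a coefficient of variation of 17.1% over the 3 libraries and 2.05% for replicates 1 and 2. Replicates 1 and 2 were kept as separate libraries, as labelled, and 256 genes (2.01%) differed between them by the chi-square test. That test looks at counting noise only, so it cannot tell technical from separate replicates. DESeq2 1.42.0 size factors were an alternative. R 4.3.3, Python 3.11.15, numpy 2.4.6, scipy 1.17.1 and matplotlib 3.10.9 were used. The genes, lists and tests were chosen with earlier results of these data known. All 35 genes are named, with the genes of the fixed pairs, the detected other complement genes and the 4 most abundant genes of each other list; further names were chosen after their values were seen. A few genes of the other lists are not reported here by name. With 1 group, no comparison between conditions was possible. Map19, listed among the other complement genes, matched no line.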

Additional observations from a re-analysis of the deposited data

How the results depend on the processing

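The alternatives gave 111 values of 17 results. Log2 ratios were judged by direction and by whether they exceeded the spread, counts by a change of 1.5 times, and pooled ratios by the counting interval of the value reported. For a lower bound that interval is open upwards, so any smaller bound counts as moved and no larger one does. By these rules 99 values stayed as reported. The number of detected complement genes stayed between 6 and 9 over all alternatives. The number that varied between libraries was 0 to 7 when a library was left out, and the 0 came without replicate 3. The log2 ratio of C1s1 over C1ra ran from −1.02 to −0.22 with a library left out, and exceeded the spread without replicate 3 only. The log2 ratio of C2 over C4b ran from −0.39 to 2.29 and reversed without replicate 3, where C4b had 0 counts. The log2 ratio of C3 over C4b ran from 0.17 to 2.25, lowest without replicate 3, and was 0.62 with a pseudocount of 5 and 2.28 with 0.1. Ratios against genes at or near 0 counts moved with the counts left in. Leaving out a library gave 0 to 0.137 for Cfb over C2, at least 241 to 271 for Cr1l over Cd55 (659 with longest transcripts, 812 without length correction) and at least 45.0 to 56.7 for C3ar1 over C5ar1, which was 73.2 with longest transcripts and 124 without length correction. The cause was not tested beyond these counts and lengths. Neighbouring levels that differed beyond the spread numbered 4 with longest transcripts and 5 without length correction. No paired analysis was possible because there is 1 group. Averaging replicates 1 and 2, an alternative chosen after seeing the data, gave 7 detected genes and changed no call among the 6 pairs tested. Genes under about 1 CPM rest on few counts, and those at 0 are not detectable at this depth rather than absent.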
